A study of Rattus norvegicus with 24 samples.

Results

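Livers of sham rats were followed over days 2, 4 and 7 of a burn injury series on 9 of its 24 oligonucleotide arrays. They are the arrays whose titles carry one of these days and the letter s, with 3 arrays on each day. All are whole-liver total RNA of Rattus norvegicus. The comparisons were day 4 against day 2, day 7 against day 4 and day 7 against day 2, and any 2 of these 3 share the arrays of a day. The 9 burn arrays of the same days entered the fit to estimate the spread and served as other arrays of the same days.

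The letter s was read as sham. None of the 9 descriptions names a treatment, while the description of burn day 2 replicate 1 speaks of a sham control against its title. What the sham rats underwent, their strain, age, sex and feeding, and whether the arrays of a day came from separate animals are not stated in the labels. The p-values therefore measure only the spread between these arrays, which may be technical. Neither the labels nor the table names an array batch or a collection time, so a difference between days and a difference between sets of arrays cannot be told apart.

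A sham group goes through the handling of an injury study without the injury, often with anaesthesia, and shows what the liver does over the same days from the procedure, recovery and time alone. The liver answers even mild stress and changed food intake at the level of mRNA, through acute-phase plasma proteins, glucose and lipid metabolism and detoxifying enzymes, and many of its transcripts follow the hour of the day. RNA integrity also shapes array signal: because labelling starts at the 3′ end of a transcript, a high ratio of 3′ over 5′ signal for a long-lived housekeeping transcript is a usual sign of partly degraded RNA.

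Which genes these arrays speak of could not be read. The table pairs each row with a probe set name, but names and values did not belong together: for 1868 genes with at least 2 rows, the mean levels of the first 2 rows correlated across genes at only -0.0469. The 2 rows listed under Alb, the gene of serum albumin, stood at percentiles 6.77 and 71.6 of signal. Liver markers, gene groups and sequences therefore could not be used, and a transcript is given below by its row in the table, counted from 1. Within days 2, 4 and 7 a row holds the same transcript on every array, so days could be compared row by row. Of the 15923 rows, 57 are array controls and were left out, and 15866 were tested. Among the array controls, names could be checked for those added in known order of amount. The 4 bacterial and phage transcripts added to every array of this design in rising amounts are BioB, BioC, BioD and Cre. They stood in that order on 9 of 9 sham arrays (signal of at most 461.3 for BioB and at least 18968.7 for Cre). The names of the Actb, Gapdh and Hk1 control rows were not checked in this way. They are taken to hold too, and these rows are used by name as signs of RNA quality alone. Levels are log2(signal + 16) after quantile normalization unless stated otherwise, so differences of dim rows are understated.

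Day 7 stood somewhat apart from days 2 and 4 before any row was tested. Median log2 signal before normalization was 7.77, 7.84 and 7.89 on the arrays of day 2, 7.96, 7.80 and 7.86 on those of day 4, and 7.66, 7.76 and 7.57 on those of day 7. Each array of day 7 thus had a lower median than every array of the earlier days, the closest being 7.76 against 7.77. The deposited values had been scaled to a mean of 500.2 without the lowest and highest 2% on every array. A lower median therefore tells of the shape of the distribution after scaling, and how bright an array was before scaling could not be read. The means were 7.83 ± 0.06, 7.87 ± 0.08 and 7.66 ± 0.10 (SD, n = 3 each; two-sided exact permutation p = 0.0357 over all 1680 assignments of arrays to days, 0.161 after adjustment over 5 array measures). The interquartile range was 2.39 ± 0.05, 2.46 ± 0.11 and 2.62 ± 0.14 log2 units (SD, n = 3 each; two-sided exact permutation p = 0.0714, adjusted 0.161), with overlap between days.

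The 3′ over 5′ log2 ratio of Actb, which encodes cytoplasmic beta-actin, was 0.89, 0.61 and 0.34 on day 2, 0.97, 0.52 and 0.61 on day 4 and 1.27, 0.87 and 1.32 on day 7. The values of day 7 overlapped the earlier days through replicate 2 alone, and the means were 0.61 ± 0.28, 0.70 ± 0.24 and 1.15 ± 0.24 (SD, n = 3 each; two-sided exact permutation p = 0.146, adjusted 0.183). For Gapdh, a glycolytic enzyme, the mean ratios were 0.46 ± 0.22, 0.40 ± 0.17 and 0.88 ± 0.32 (SD, n = 3 each; two-sided exact permutation p = 0.0964, adjusted 0.161). For Hk1, a hexokinase that phosphorylates glucose, they were 1.08 ± 0.99, 0.75 ± 0.26 and 0.77 ± 0.44 (SD, n = 3 each; two-sided exact permutation p = 0.843). None of the 5 measures passed after adjustment, and the smallest p that this design allows is 0.00357. The level of Actb itself averaged 12.88 ± 0.13, 12.81 ± 0.00296 and 12.40 ± 0.24 on the 3 days, that of Gapdh 13.10 ± 0.08, 13.08 ± 0.06 and 12.99 ± 0.14, and that of Hk1 5.81 ± 0.82, 6.09 ± 0.02 and 5.67 ± 0.41 (SD, n = 3 each). Hk1 was thus far dimmer than Actb and Gapdh, and its ratio is a weak sign of RNA quality.

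**Figure D1:**
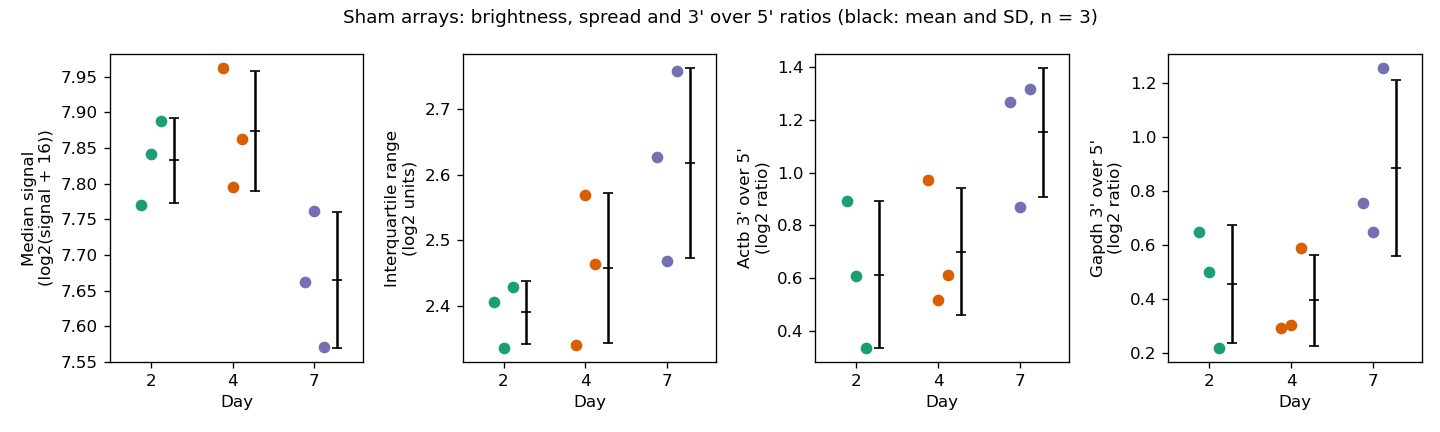
Median log2 signal, interquartile range of log2 signal and the 3′ over 5′ log2 ratios of Actb and Gapdh (vertical axes) on the 9 sham arrays by day (horizontal axis); points are arrays, black bars the mean and SD of 3 arrays. The 3 arrays of day 7 have the lowest medians, at most 7.76, and their Actb and Gapdh ratios average 1.15 and 0.88.

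Over all rows tested, arrays of the same day correlated at 0.958 to 0.969 (median 0.964, 9 pairs) and arrays of different days at 0.942 to 0.966 (median 0.958, 27 pairs). Of the 9 arrays, 8 were closest to an array of their own day. The exception was sham day 2 replicate 3, which was closest to sham day 4 replicate 3. The first principal component held 21.6% of the variance. Its scores were 26.2, 21.4 and 37.4 on day 7 and negative on all other arrays, the lowest being -35.7 on sham day 4 replicate 1. On the second component (15.4%) the arrays of day 2 lay above those of day 4, with 37.98, 25.9 and 2.16 against -16.5, -21.2 and -9.47. Arrays thus lay closer within days than between them, by a small margin.

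**Figure D2:**
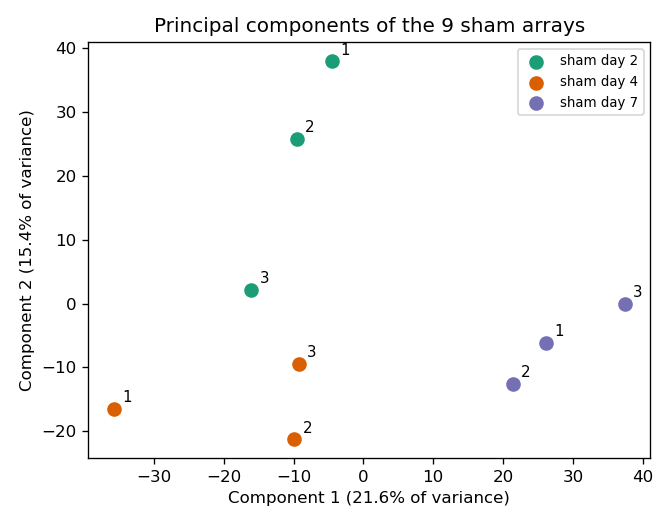
Scores of the 9 sham arrays on the first and second principal components of all 15866 rows, which hold 21.6% and 15.4% of the variance; colours are days and numbers are replicates. The 3 arrays of day 7 lie to the right, and sham day 2 replicate 3 lies nearest to the arrays of day 4.

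Few single rows passed adjustment in the tests between days, which with 3 arrays on each does not show that few differed. A row is called here at an adjusted p under 0.05 in limma, with Benjamini-Hochberg adjustment over all rows. The F test over the 3 sham days called 8 rows (0.0504% of those tested), and 2473 rows (15.6%) had an unadjusted p under 0.05. Pairwise, no row was called between days 4 and 2 (0%), 11 between days 7 and 4 (0.0693%) and 2 between days 7 and 2 (0.0126%). These tests share arrays, and together they called 13 rows. The count between days 7 and 4 rested on single arrays: it was 50 without sham day 7 replicate 2, and 4 without sham day 4 replicate 1 or replicate 2. That of the F test was 25 without sham day 7 replicate 2 and 1 without sham day 4 replicate 2 or burn day 4 replicate 2, and that between days 7 and 2 was 16 without sham day 2 replicate 3 or sham day 7 replicate 3. When the 3′ over 5′ ratio of Actb entered limma as a covariate, no row was called by the F test or in any of the 3 comparisons, where 1888, 1658, 1707 and 1536 rows reached an unadjusted p under 0.05. The 13 pairwise differences called without it kept their direction with it, at 0.765 to 1.14 times their size, 5 of them larger and 8 smaller.

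Of the 13 rows called by any of these tests, day 7 was the day whose mean lay farther from both others in 9, higher in 3 and lower in 6. Day 4 was apart in 3 and day 2 in 1. These 13 rows were chosen by tests of the same arrays, 11 of them between days 7 and 4. Day 7 standing apart among them thus follows in part from that choice. Over all rows tested day 7 was apart in 37.8%, day 4 in 32.4% and day 2 in 29.9%. In 1121 rows (7.07%) all 3 arrays of day 7 lay outside the range of the other 6 sham arrays, 535 above and 586 below it. The same held for the arrays of day 4 in 876 rows (5.52%) and for those of day 2 in 687 rows (4.33%). Some rows stand so even where days do not differ, so these counts are descriptions and not tests. Means were ordered upward over the 3 days in 2669 of the 15866 rows and downward in 2824, and 1 of the called rows, row 6139, was among the former. Means of 3 days fall in either order in some rows without a difference between days, so these counts do not show a steady course.

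Between days 7 and 4, 4 rows rose (0.0252%) and 7 fell (0.0441%). With the values as the authors deposited them the split was 16 up and 50 down, and with each array scaled to a common median it was 20 up and 8 down; these scalings moved the median difference of all rows to -0.12 and 0.09, from -0.01. The 3 arrays of the 1 day did not overlap the 3 of the other in 3434 rows (21.6%), of which 1706 were higher (10.8%) and 1728 lower (10.9%) on day 7. With so few arrays a sizeable share of rows stands so without any difference between days. Shares without overlap, here and below, are thus descriptions and not counts of changed rows. An unadjusted p under 0.05 was reached by 2356 rows (14.8%). Both counts were nearly even between directions, and the median size of a difference was 0.22 log2 units, against a median standard error of 0.22.

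Row 9777, a dim row at percentile 12.1 of mean sham level, gave the smallest adjusted p. The arrays of day 2 read 5.33, 5.22 and 5.23, those of day 4 read 5.34, 5.18 and 5.19, and those of day 7 read 6.19, 6.48 and 6.31. All arrays of day 7 lay above all earlier ones, and days 2 and 4 could not be separated. It rose by 1.09 ± 0.13 (log2 difference ± SE, n = 3 each; 2.13-fold; limma adjusted p = 0.00968) from day 4 to day 7, and by 1.06 ± 0.13 (limma adjusted p = 0.0133) from day 2 to day 7. In deposited signal, the earlier days ran from 17.5 to 29.1 and day 7 from 47.2 to 73.9. The 9 burn arrays lay between 4.97 and 5.42, with means of 5.17, 5.25 and 5.19 on days 2, 4 and 7. The sham arrays of day 7 thus stood above the other 15 arrays of the fit. The rise kept its call with each of the 18 arrays left out in turn.

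Among the called rows, row 2529 had the largest rise between days 7 and 4. Its levels were 5.96, 6.03 and 5.54 on day 2, 5.85, 5.49 and 5.82 on day 4 and 7.69, 7.51 and 7.86 on day 7. Day 7 again lay above all other sham arrays, by 1.97 ± 0.32 over day 4 (log2 difference ± SE, n = 3 each; 3.91-fold; limma adjusted p = 0.0398). Against day 2 the difference of 1.84 was not called (limma adjusted p = 0.0754). The burn means were 6.27 ± 0.87, 5.95 ± 0.02 and 5.72 ± 0.36 (SD, n = 3 each), and the highest burn array, at 7.13, lay below the lowest sham array of day 7. The call held in 9 of the 18 fits with an array left out.

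The other rows that rose from day 4 to day 7 moved less. Row 3346 stood at 7.50, 7.54 and 7.66, then 7.39, 7.51 and 7.11, then 8.15, 8.36 and 8.06 on days 2, 4 and 7, a rise of 0.85 ± 0.14 (log2 difference ± SE, n = 3 each; limma adjusted p = 0.0471). Row 15312, a bright row at percentile 89.3, stood at 10.34, 10.56 and 10.46, then 9.98, 9.98 and 9.84, then 10.58, 10.58 and 10.75. In this row day 4 was the low day, under every array of days 2 and 7. Its rise from day 4 to day 7 was 0.71 ± 0.12 (log2 difference ± SE, n = 3 each; limma adjusted p = 0.0471), while the burn means of 10.61, 10.61 and 10.29 had no such dip. With each of the 18 arrays left out in turn, row 3346 kept its call in 3 fits and row 15312 in 4.

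Among the 7 rows that fell from day 4 to day 7, rows 6651 and 11442 moved most. Row 6651 stood at 7.19, 6.81 and 6.79 on day 2, 7.86, 7.23 and 7.62 on day 4 and 5.11, 6.20 and 5.25 on day 7. It fell by 2.05 ± 0.30 (log2 difference ± SE, n = 3 each; 4.15-fold lower; limma adjusted p = 0.0271). Every array of day 7 lay below every earlier sham array, replicate 2 by the smallest gap. The burn arrays of the 3 days lay between 6.70 and 7.91, above all 3 of sham day 7.

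Row 11442, at percentile 81.3, stood at 9.49, 9.52 and 9.996 on day 2, 10.65, 10.51 and 10.14 on day 4 and 8.08, 9.21 and 7.87 on day 7. The 3 days did not overlap, day 4 being highest and day 7 lowest. It fell by 2.05 ± 0.31 from day 4 to day 7 (log2 difference ± SE, n = 3 each; 4.14-fold lower; limma adjusted p = 0.0271). On burn arrays day 4 was the low day, at 9.25, 8.80 and 8.63, below 10.23, 9.78 and 10.49 on day 2 and 9.85, 9.56 and 10.09 on day 7. The Actb 3′ over 5′ ratio was highest on day 7 among sham means (1.15) and on day 4 among burn means (0.81, against 0.25 and 0.41). Sham day 7 replicate 2 had the highest level of this row and the lowest ratio of its day, 0.87. Sham day 4 replicate 1, however, had the highest level of this row, 10.65, and the highest ratio of its day, 0.97. Whether RNA quality accounts for the course of this row was not tested. With the Actb ratio as a covariate the difference was -1.57, not called (limma adjusted p = 0.2); among the 13 called differences this row kept the smallest share of its size, and row 13840 the largest, with -1.11 in place of -0.97.

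Rows 2780, 11592, 4680 and 13840 had the same shape, with day 7 below every array of both earlier days. Row 2780 had means of 7.01 ± 0.56, 7.59 ± 0.29 and 5.79 ± 0.21 (SD, n = 3 each) and fell by 1.80 ± 0.30 (log2 difference ± SE; limma adjusted p = 0.0443), a call that held in 10 of the 18 fits with an array left out. Row 11592 stood at 8.45, 8.67 and 9.01, then 8.94, 8.84 and 8.86, then 7.82, 7.36 and 7.78, and fell by 1.23 ± 0.19 (log2 difference ± SE, n = 3 each; limma adjusted p = 0.0271). Row 4680 stood at 7.08, 7.01 and 7.06, then 7.32, 7.15 and 7.29, then 6.50, 6.27 and 5.99, and fell by 1.00 ± 0.14 (log2 difference ± SE, n = 3 each; limma adjusted p = 0.0216). On burn arrays the means of row 4680 went the other way, from 6.62 through 6.89 to 7.15, a difference of 0.53 between days 7 and 2 that was not called (limma adjusted p = 0.126). Row 13840 fell by 0.97 ± 0.15 (log2 difference ± SE, n = 3 each; limma adjusted p = 0.0271), from 8.36 ± 0.04 on day 4 to 7.38 ± 0.18 on day 7 (SD), and its 9 burn arrays lay between 7.999 and 8.65.

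The remaining row that fell from day 4 to day 7, row 3228, is named outside the naming rule so that all 11 are accounted for. It was high on day 4, with means of 9.94 ± 0.07, 10.50 ± 0.16 and 9.73 ± 0.13 (SD, n = 3 each), and fell by 0.77 ± 0.13 (log2 difference ± SE; limma adjusted p = 0.0471), a call that held in 3 of the 18 fits with an array left out. The largest difference without overlap in either direction was not called: row 6465 stood at 5.77, 5.02 and 6.74 on day 4 and 9.76, 9.20 and 8.84 on day 7, a difference of 3.42 ± 0.88 (log2, ± SE, n = 3 each; limma adjusted p = 0.125). Its arrays of day 2 spread from 6.39 to 10.49. Burn arrays gave nearly the same value, 3.49 (limma adjusted p = 0.151), with 6.71, 5.19 and 6.11 on day 4 and 8.88, 9.76 and 9.84 on day 7. The difference between both arms was 0.07 ± 1.24 (log2, ± SE).

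**Figure D3:**
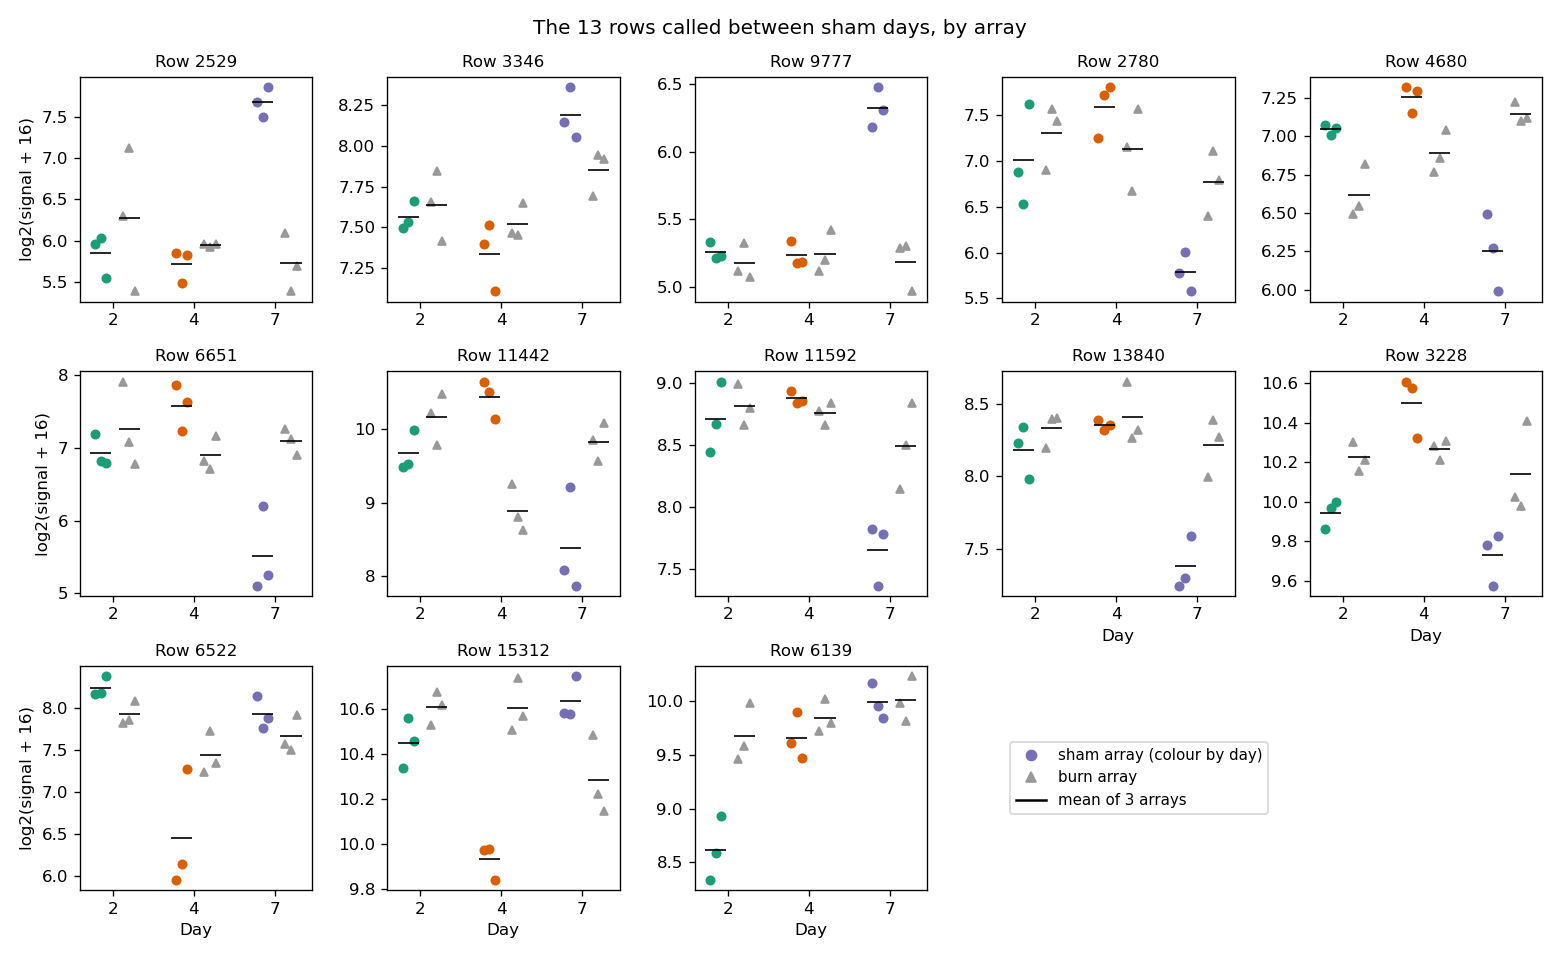
Levels, log2(signal + 16), of the 13 rows called in any test between sham days (vertical axes, scaled per panel), by day (horizontal axis); circles are sham arrays, grey triangles burn arrays and bars the mean of 3 arrays. The rows were selected by tests of these same sham arrays. In 9 panels the sham arrays of day 7 stand apart, as in row 9777, where they lie between 6.19 and 6.48 and all other arrays at or below 5.42.

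Between days 7 and 2 both called rows rose (0.0126%) and none fell (0%). One is row 9777, described above. The other, row 6139 at percentile 80.3, stood at 8.34, 8.59 and 8.93 on day 2, 9.61, 9.91 and 9.47 on day 4 and 10.17, 9.96 and 9.84 on day 7. It was low on day 2 alone, and days 4 and 7 overlapped. It rose by 1.37 ± 0.19 from day 2 to day 7 (log2 difference ± SE, n = 3 each; 2.59-fold; limma adjusted p = 0.0217). Deposited signal ran from 302.5 to 486.1 on day 2 and from 916.1 to 1157.9 on day 7. The burn means were 9.68, 9.85 and 10.01, so that burn arrays of day 2 already stood near the sham level of day 4.

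The arrays of days 7 and 2 did not overlap in 2974 rows (18.7%), 1461 of them higher (9.21%) and 1513 lower (9.54%) on day 7, and 2068 rows (13%) had an unadjusted p under 0.05. The largest upward differences without overlap beyond the called rows were 4.07 in row 4340, 2.71 in row 14113 and 2.19 in row 6797 (limma adjusted p = 0.112, 0.112 and 0.0978). Row 14113 stood at 4.94, 5.02 and 6.43 on day 2, 5.15, 5.31 and 4.94 on day 4 and 7.75, 8.25 and 8.50 on day 7, above every earlier sham array. Downward, rows 8943, 6957, 5024, 8374 and 13328 gave -1.96 to -1.62 with limma adjusted p from 0.17 to 0.321. Row 8943 was even on day 2 and split on the other days. Its arrays of day 2 were alike, at 8.68, 8.65 and 8.60, while those of day 4 were 8.80, 8.64 and 6.22 and those of day 7 5.73, 8.37 and 5.96.

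Between days 4 and 2 limma's smallest adjusted p was 0.102, and no row was higher (0%) or lower (0%) beyond the threshold. The arrays did not overlap in 2351 rows (14.8%), 1163 higher (7.33%) and 1188 lower (7.49%) on day 4, and 1601 rows (10.1%) had an unadjusted p under 0.05. Leaving out sham day 2 replicate 3 gave 9 called rows, and leaving out sham day 4 replicate 3 gave 6.

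The largest difference anywhere between sham days was that of row 4340, which was not called. Day 2 gave 6.94, 7.42 and 8.63 and day 4 gave 12.54, 12.62 and 12.11, a difference of 4.76 ± 0.91 (log2, ± SE, n = 3 each; 27.1-fold; limma adjusted p = 0.102). Day 7 gave 12.60, 12.61 and 9.98. In deposited signal the arrays of day 2 read 107.0, 164.5 and 391.5 and those of day 4 read 5772.7, 6281.5 and 4208.3. Burn arrays were spread likewise, with 8.57, 12.86 and 12.10 on day 2 and 11.29 to 12.86 on days 4 and 7. The lowest burn array, at 8.57, is burn day 2 replicate 1, whose description speaks of a sham control. Without this array the sham difference of row 4340 was 4.76 and was called (limma adjusted p = 0.0377). In row 6139 the same array stood at 9.47, above the 3 sham arrays of day 2, and in row 13248 at 9.34, below them.

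The other upward differences named by size between days 4 and 2, in rows 7762, 4087, 5771 and 2867, were 2.08, 2.02, 1.96 and 1.71 (limma adjusted p = 0.294, 0.33, 0.115 and 0.361). Row 5771 was even on day 2, at 8.08, 8.16 and 8.10, and stood at 9.94, 9.79 and 10.47 on day 4. Burn arrays of row 5771 had the opposite sign, with a difference of -1.26 (limma adjusted p = 0.202). The test of the difference between both did not pass (-3.21 ± 0.55, limma adjusted p = 0.141).

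Downward, rows 8133, 13248, 10563, 12865 and 6522 gave -2.14, -1.83, -1.81, -1.80 and -1.78 from day 2 to day 4. Row 6522 was one of the 8 rows called by the F test (limma adjusted p = 0.0431), although none of its pairwise differences was called. It stood at 8.16, 8.17 and 8.38 on day 2, 5.96, 6.15 and 7.27 on day 4 and 8.14, 7.76 and 7.88 on day 7, so that day 4 was the low day. Row 10563 had its lowest mean on day 4 in both arms, with sham means of 9.87, 8.06 and 10.07 and burn means of 10.86, 9.43 and 10.17, and no pairwise call between sham days (limma adjusted p = 0.115 for days 4 and 2, 0.0526 for days 7 and 4).

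Which rows were called changed with the arrays in the fit. In a fit of the 9 sham arrays alone, with 6 in place of 12 residual degrees of freedom, 11 rows were called by any test, and of these rows 2529 and 9777 were also called with 18 arrays. The following rows were chosen after their values were seen, and their sham levels are from arrays normalized without the burn arrays. Row 10173, called only among sham arrays (0.99 ± 0.11 between days 7 and 4, ± SE, n = 3 each; limma adjusted p = 0.0381), was the tightest: 8.35, 8.24 and 8.31 on day 2, 7.38, 7.36 and 7.31 on day 4 and 8.39, 8.29 and 8.33 on day 7. Its burn means were level, at 8.09, 8.14 and 8.14. Row 8749 stood at 5.13, 5.30 and 4.90 on day 2 against 6.68 to 6.93 on day 4 and 6.88 to 7.27 on day 7 (1.92 between days 7 and 2, limma adjusted p = 0.0206), and its burn means were 5.02, 6.56 and 6.31. Row 9472 was high on day 7, at 6.49, 6.74 and 6.75 against at most 5.46 on the earlier days.

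Bright and dim rows differed in the size of their differences and in their spread within days. In the brightest 33.3% of rows, sham arrays of days 7 and 4 did not overlap in 27.0% of rows, against 21.2% in the middle and 16.7% in the dimmest 33.3%. For days 4 and 2 the shares were 20.9%, 12.1% and 11.5%, and for days 7 and 2 19.6%, 20.7% and 16%. Differences of at least 2-fold without overlap ran the other way, with 31 rows in the brightest and 237 in the dimmest band between days 7 and 4. The median SD within day 7 was 0.14 in the brightest and 0.36 in the dimmest band. The median size of a difference between days 7 and 4 was 0.17 in the brightest and 0.30 in the dimmest band. The larger differences of dim rows thus came with a larger spread within days.

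Among the 300 brightest rows, from 12.70 to 15.20 in mean level, none was called in any of the 4 tests (0 by limma), while 38 had an unadjusted p under 0.05 in the F test (12.7%, against 15.6% over all rows). Their arrays of days 7 and 4 did not overlap in 31% of rows, a higher share than in any wider band, and those of days 7 and 2 in 16.7%, a lower share than in the brightest 33.3% and over all rows. Between days 7 and 4, 2 rows differed by at least 2-fold without overlap. The median size of a difference there was 0.12 log2 units. By the F test, 1, 3 and 4 rows were called in the brightest, middle and dimmest bands.

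**Figure D4:**
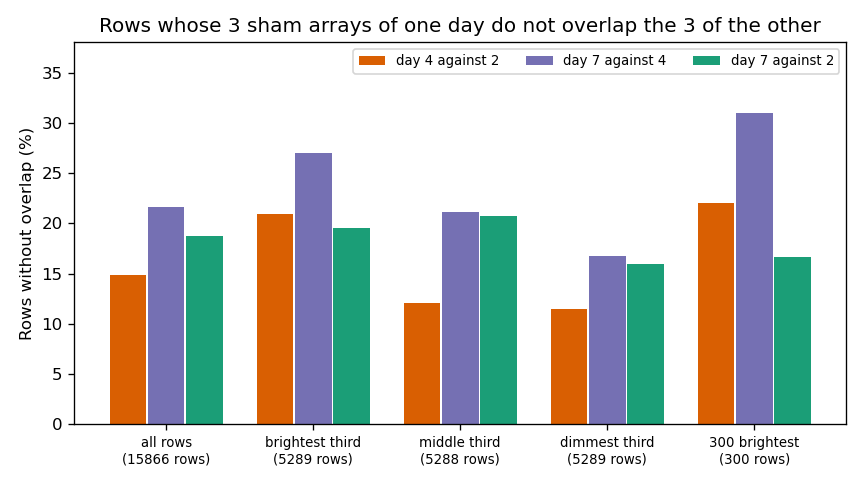
Share of rows in percent (vertical axis) whose 3 sham arrays of one day do not overlap the 3 of the other, for all 15866 rows, bands of brightness and the 300 brightest rows (horizontal axis); bar colours are the 3 comparisons. Between days 7 and 4 the share is 27.0% in the brightest, 16.7% in the dimmest band and 31% in the 300 brightest rows. A sizeable share of rows stands so without any difference between days.

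Burn arrays of the same days share no array with the sham arrays, but share the normalization and the estimated spread. Between their days, 34 rows were called for day 4 against day 2 (0.214%), 13 for day 7 against day 4 (0.0819%) and 24 for day 7 against day 2 (0.151%). Without overlap stood 17.9%, 18.2% and 18.8% of rows, and 11.8%, 11.7% and 13.3% had an unadjusted p under 0.05. For sham arrays the shares without overlap were 14.8%, 21.6% and 18.7%. The order of the comparisons thus differed between the arms, with most rows apart between days 7 and 4 in sham liver. That order itself was not tested.

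Across the 15866 rows, the sham difference correlated with the burn difference at 0.118 for day 4 against day 2, 0.179 for day 7 against day 4 and 0.315 for day 7 against day 2 (Pearson; Spearman 0.130, 0.171 and 0.318). Rows are not independent replicates, and these are descriptions. Leaving out sham day 2 replicate 3 lowered the first to 0.0424, and leaving out burn day 4 replicate 1 lowered the second to 0.0853. The third lay between 0.255 and 0.331 without any 1 array. Of the rows with an unadjusted p under 0.05 between days 7 and 2, 463 were shared by both arms, which is 22.4% of the sham and 21.9% of the burn rows. Among them 223 were higher and 210 lower on day 7 in both, and 30 had opposite signs. Between days 7 and 4, 427 were shared (18.1% of the sham and 22.9% of the burn rows), of which 142 had opposite signs. Between days 4 and 2, 287 were shared (17.9% of the sham and 15.3% of the burn rows), of which 64 had opposite signs. Over all rows tested, the shares under 0.05 for these 3 comparisons in turn were 13%, 14.8% and 10.1% on sham arrays. On burn arrays they were 13.3%, 11.7% and 11.8%.

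**Figure D5:**
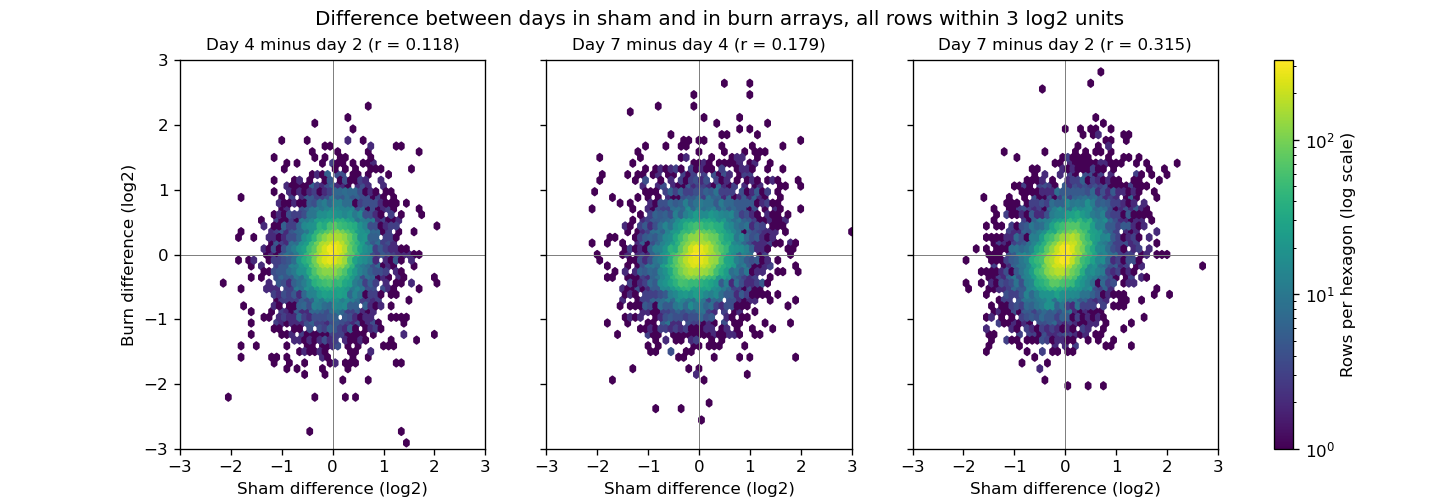
Difference between days on sham arrays (horizontal axis) and on burn arrays (vertical axis), both in log2 units, for all rows within 3 log2 units; colour gives the number of rows per hexagon on a log scale, and 5, 6 and 1 rows lie outside the 3 panels. The cloud is nearly round for days 4 and 2 (r = 0.118) and slightly tilted for days 7 and 2 (r = 0.315).

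The test of the difference between both arms called no row for day 4 against day 2 (0%) or day 7 against day 2 (0%), 2 rows for day 7 against day 4 (0.0126%), and none by its F test (0%; limma, smallest adjusted p = 0.0754, 1502 rows under 0.05 unadjusted). For the pairwise tests that called none, 1349 and 1016 rows had an unadjusted p under 0.05. One called row is 11442, described above. The other is row 6732, with sham means of 6.88 ± 0.37, 5.06 ± 0.30 and 6.94 ± 0.09 and burn means of 6.82 ± 0.21, 7.06 ± 0.23 and 5.51 ± 0.88 (SD, n = 3 each). In sham liver its low day was day 4, and on burn arrays it was day 7. The sham difference alone, 1.88 between days 7 and 4, was not called with 18 arrays (limma adjusted p = 0.0526) and was called with the 9 sham arrays alone (0.0381), and the difference between both arms was -3.42 ± 0.46 (± SE; limma adjusted p = 0.0369).

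None of the 13 rows called between sham days was called between the same days on burn arrays. Their tests against the burn arrays stood near the threshold without passing in rows 4680 (limma adjusted p = 0.0555), 9777 (0.0595), 15312 (0.062), 6651 (0.0859) and 2529 (0.0918) for day 7 against day 4, and passed in row 11442. For these rows the sham course was thus not shown to differ from the burn course, other than in row 11442.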

How the data were processed

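Rat liver RNA was measured on arrays. The authors deposited an unlogged intensity for each probe set, made with software that the labels and the table do not name. The mean without the lowest and highest 2% was 500.2 on every array, so the authors' deposited intensity had been scaled per array. Day 1 was left out because its rows are in another order. Groups were read from titles. Values were taken to log2(signal + 16) and quantile-normalized over the 18 arrays of days 2, 4 and 7. They were fitted with 1 mean per arm and day in limma 3.58.1 (R 4.3.3; lmFit, eBayes; 12 residual degrees of freedom), adjusted by Benjamini-Hochberg over 15866 rows. Array measures were tested by exact two-sided permutation of the F statistic. The fit was tested on simulated data. Figures were drawn with matplotlib 3.10.9.

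Rows named were, per comparison and direction, the 5 with the largest difference among called rows without overlap, filled to 5 by size among uncalled rows without overlap and with a mean of at least 7 on the brighter day, and every row called by the F test. The samples, rules and tests were chosen with earlier results of these data known. The number of arrays limits the precision. Alternatives were scaling, pseudocount, filter, variance model, array weights, the arrays fitted, the Actb ratio as a covariate, a replicate block and leaving out each array.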

Additional observations from a re-analysis of the deposited data

Results flagged for a closer look

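The difference between sham and burn arrays in their change from day 4 to day 7 passed limma's test in 2 rows. In row 6732 the burn difference minus the sham difference was -3.42 (limma adjusted p = 0.0369), with all 3 sham arrays of day 7 above those of day 4 and all 3 burn arrays of day 7 below those of day 4. In row 11442 it was 2.99 (limma adjusted p = 0.0443), with the directions turned round. Both are interaction terms over all 15866 rows tested.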

How the results depend on the processing

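Counts of called rows moved with nearly every setting. In the order day 4 against day 2, day 7 against day 4, day 7 against day 2 and F test, the counts as reported were 0, 11, 2 and 8. The deposited scale gave 0, 66, 2 and 24, median scaling 0, 28, 3 and 12, a pseudocount of 1 gave 0, 7, 2 and 2, and a pseudocount of 64 gave 1, 33, 4 and 22. Dropping the dimmest 33.3% of rows gave 13, 26, 6 and 25, a robust variance with intensity trend 21, 51, 4 and 50, and array weights 0, 39, 2 and 22. The 9 sham arrays alone gave 0, 7, 7 and 9, and the 6 arrays of the days compared gave 0, 11 and 0 in the pairwise tests. Without the burn array whose description speaks of a sham control the counts were 1, 6, 2 and 5, and with the Actb ratio as covariate 0 in each (limma, unadjusted counts in the report).

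Same-numbered arrays did not deviate together (9 pairs, correlations of -0.0351 to 0.0627), so the numbers were not taken as pairs. With the replicate number as a block the counts were 1, 7, 3 and 7 with 18 arrays and 0 in each with the sham arrays alone. With 1 array left out, the counts ran from 0 to 9, 4 to 50, 2 to 16 and 1 to 25 rows.

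No difference of a named row changed sign under any of these settings. The named rows were chosen for arrays without overlap or by tests of these same arrays. Their signs were thus largely fixed by that choice, and this is no sign of stability. Of 452 values under other settings, 357 kept their side of the threshold, 88 lost their call and 7 gained one. Of 702 with an array left out, these were 550, 148 and 4. These values pool named rows that were called and not called, and only a called one could lose its call. Shares of the pooled values thus overstate how well calls held. Row 3346 between days 7 and 4 kept its call in only 8 of 30 repeats. Row 9777 between days 7 and 4 kept its call in 27 of 29 repeats, losing it with the Actb ratio as covariate (limma adjusted p = 0.148) and with the replicate block among sham arrays alone (0.186). In all these figures the fit without burn day 2 replicate 1 is counted both as a setting and as an array left out. For the Hk1 ratio, day 7 minus the mean of the earlier days was -0.14, and -0.3773 to 0.1158 with 1 array left out. It turned to 0.1158 without sham day 2 replicate 3 and to 0.0567 without sham day 7 replicate 2; the cause was not tested.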
